A study of Mus musculus with 2 samples.

Results

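The nuclear genes for the subunits of the mitochondrial respiratory chain and the ATP synthase were examined in CD4- mature thymocytes. They were chosen by symbol from the genes listed in both count files. The symbol families for complex I were Nduf followed by a, b, c, s or v and a number. Those for complexes II to V were Sdha to Sdhd, the Uqcr genes, Cox4 to Cox8 and the Atp5 genes. This rule leaves out some subunits, such as Ndufab1 of complex I (390 and 464 counts) and Usmg5 of complex V (537 and 544 counts). Of 48321 genes, 90 matched, 6 of them were annotated copies with a -ps symbol and were left out, and 84 remained. They fell into 37 genes of complex I, 4 of complex II, 8 of complex III, 18 of complex IV and 17 of complex V. In 4 cases the symbol matched but the product is not a fixed subunit. These were Ndufa4l2, a paralogue of Ndufa4, Cox7a2l, which takes part in building supercomplexes, and Atp5s and Atp5sl, which act as a coupling or assembly factor.

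The cells were CD24lo TCRbeta-hi thymocytes that lacked CD4, sorted from MHC-IIo:CD8ab-Tg mice, for which 2 libraries, replicate 1 and replicate 2, were available. These mice lacked MHC class II through the I-Ab deletion, carried CD8alpha and CD8beta cDNAs in the Rosa26 locus that were switched on by Cd4-Cre, and had both endogenous Cd8 genes disrupted, with a human CD2 cDNA in Cd8a. All of this was shared by both libraries, so the data held 1 condition and no comparison of genotypes. Cd4-Cre acts from a T lineage promoter, the transgenic CD8 was made at a lower level than the endogenous protein, and the strain background was C57Bl/6. The labels were not uniform, since the titles called the cells CD4-CD8- and the cell type field called them CD8+. They did not give age or sex, nor did they say whether the replicates came from separate mice. The spread between the replicates may be technical in part.

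The libraries held 16732644 and 16245849 counts on genes, of which 13.6% and 10.8% lay on Gm42418 and Rn18s-rs5, a pair of genes of ribosomal RNA sequence. The 12 markers of mature T cells were all at 1 CPM (counts per 1000000 counts on genes) or more in both libraries, and their summed level was 5472 and 5243 CPM. They include Cd8a (158 and 171 CPM) and Cd8b1 (775 and 786 CPM), whose cDNAs the mice carry in Rosa26. These 2 levels therefore cannot be read as a sign of maturity. The erythroid markers had no count, the B cell and muscle markers stayed under 1 CPM in at least 1 library, and of the 5 markers of double-positive thymocytes only Dntt was at 1 CPM or more in both, with a mean of 13.2 CPM. Cd4 was among these 5, and the cells were sorted for lack of CD4. Of the myeloid markers Csf1r (10.7 CPM) and Itgam (1.57 CPM) passed 1 CPM in both and Lyz2 had 0 and 2 counts, and of the epithelial and testis markers Epcam (3.13 CPM) and Prm1 (1.31 CPM) passed. The count of Xist was 34 in one library and 25266 in the other, replicate 2, and Ddx3y had 2450 and 0. The libraries thus differed in the expression of genes linked to sex and did not come from the same single mouse. A difference between the replicates cannot be told apart from one of sex.

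Complexes I to IV pass electrons from NADH and succinate to oxygen and, except for complex II, pump protons across the inner mitochondrial membrane. Complex V, the ATP synthase, lets the protons flow back through its Fo part and makes ATP in its F1 part. Most subunits are encoded in the nucleus and imported, while a small set is encoded in mitochondrial DNA. Several nuclear subunits of complex IV exist as a widely expressed isoform and as isoforms of muscle, lung or testis. Mature T cells that are at rest are known to draw much of their ATP from this chain.

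Upstream sequence was looked up first, as a feature that the choice of genes did not use. RefSeq promoters (GRCm38.p6, the build of mm10) were found for 66 of the 84 genes, each 300 bases long, 250 before and 50 after the start of the transcript. The start lay within 100 bases of the GENCODE gene start in 54 of the 66. In these windows 3 motifs of factors known for respiratory chain genes were searched on both strands, CGCATGCG for NRF1, which reads the same on both strands, AAGATGGCG for YY1 and CCGGAAGT for the ETS factor GABP. The NRF1 letters were in the windows of 9 of the 66 genes (13.6%, against 2.07% of all 27025 genes with a promoter), the YY1 letters in 7 (10.6% against 1.64%) and the ETS letters in 5 (7.58% against 4.31%). At least 1 of them was found in 19 genes, or 28.8%, and in 7.58% of all genes. By complex, the count with any motif was 8 of 32 in complex I, 0 of 3 in complex II, 3 of 5 in complex III, 2 of 13 in complex IV and 6 of 13 in complex V. The windows held a median of 19 CG pairs, against 8 in all promoters, and the NRF1 motif itself contains CG, so the 2 measures are not independent. A match is a run of letters and not a shown binding site.

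The matches that lay wholly before the start are shown with the motif in capitals, in the direction of the gene. They were in 7 genes for NRF1, in 1 for YY1 and in 3 for ETS, and no match overlapped another. In Uqcrh and Atp5h the ETS motif is on the opposite strand and reads ACTTCCGG. These sequences are shown because they carry the motif matches counted above.
Ndufa8, NRF1, chr2:36049339-36049378, minus strand: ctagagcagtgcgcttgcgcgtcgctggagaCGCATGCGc
Ndufa11, NRF1, chr17:56717687-56717726, plus strand: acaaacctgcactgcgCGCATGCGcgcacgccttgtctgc
Cox6a1, NRF1, chr5:115349096-115349135, minus strand: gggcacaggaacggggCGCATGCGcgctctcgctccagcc
Atp5g2, NRF1, chr15:102671065-102671104, minus strand: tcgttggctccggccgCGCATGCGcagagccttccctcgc
Atp5j, NRF1, chr16:84835100-84835139, minus strand: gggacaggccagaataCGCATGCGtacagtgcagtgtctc
Atp5k, NRF1, chr5:108434425-108434464, minus strand: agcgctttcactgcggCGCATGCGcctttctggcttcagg
Atp5l, NRF1, chr9:44920953-44920992, minus strand: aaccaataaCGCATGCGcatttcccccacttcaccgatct
Atp5j, YY1, chr16:84835041-84835080, minus strand: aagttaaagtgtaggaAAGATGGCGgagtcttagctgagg
Uqcr11, ETS/GABP, chr10:80406864-80406903, minus strand: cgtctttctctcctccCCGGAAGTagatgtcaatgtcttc
Uqcrh, ETS/GABP, chr4:116075071-116075110, minus strand: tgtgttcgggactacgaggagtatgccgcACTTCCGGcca
Atp5h, ETS/GABP, chr11:115419935-115419974, minus strand: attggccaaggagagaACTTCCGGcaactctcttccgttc

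The factors themselves were expressed. Yy1 had 115 and 121 CPM, Gabpa 81.7 and 88.7 CPM and Nrf1 55.0 and 51.1 CPM in replicates 1 and 2. Of 11 regulators of mitochondrial genes listed, 10 were at 1 CPM or more in both, and the exception was the coactivator gene Ppargc1a, with 2 counts and 1 count. Its relative Ppargc1b had 19.9 and 21.2 CPM.

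Of the 84 genes, 76 were at 1 CPM or more in both libraries, as were 26.2% of all 48321 genes. The 76 comprised 36 of 37 genes of complex I, all 4 of complex II, all 8 of complex III, 11 of 18 of complex IV and all 17 of complex V. Of the 8 genes below 1 CPM, 7 were isoforms of complex IV known from other tissues, and the remaining one was Ndufa4l2. To compare genes, CPM was divided by gene length. Lengths were taken as the union of all annotated exons, which was the measure chosen for the order, and also as the principal transcript, because the union was up to 12.4 times as long as that transcript. Per kb of principal transcript the median of the 76 genes was 70.1 CPM per kb, against 11.8 over all 10634 protein-coding genes at 1 CPM or more, and 74 of the 76 lay above that median. With the union of exons the medians were 39.8 and 7.28 CPM per kb, and 73 lay above. Atp5s and Ndufb4 were below by both lengths, and Ndufb2 by the union of exons only.

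Together the 84 genes took 104613 counts (0.625%) in replicate 1 and 108397 counts (0.667%) in replicate 2, a sum of 6462 ± 297 CPM (SD, n = 2). Complex V had the largest sum, with 2504 and 2700 CPM, or 40.3% of all counts on these genes. Complex I followed with 1712 and 1796 CPM (27.1%), complex IV with 1104 and 1179 CPM (17.7%), complex III with 543 and 571 CPM (8.62%) and complex II with 390 and 427 CPM (6.32%). Every complex had the larger sum in replicate 2, by log2 differences of 0.07 to 0.13, while the median of all tested genes was higher there by 0.08, and with TMM library sizes complexes I and III turned to differences of -0.01 and 0.00. The order of the complexes by their sum was the same in both replicates, and the sums also grow with the number and length of the genes. The 95% Wilson interval of the total share was 0.621 to 0.629% in replicate 1 and 0.663 to 0.671% in replicate 2, and it covers counting error only.

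**Figure D1:**
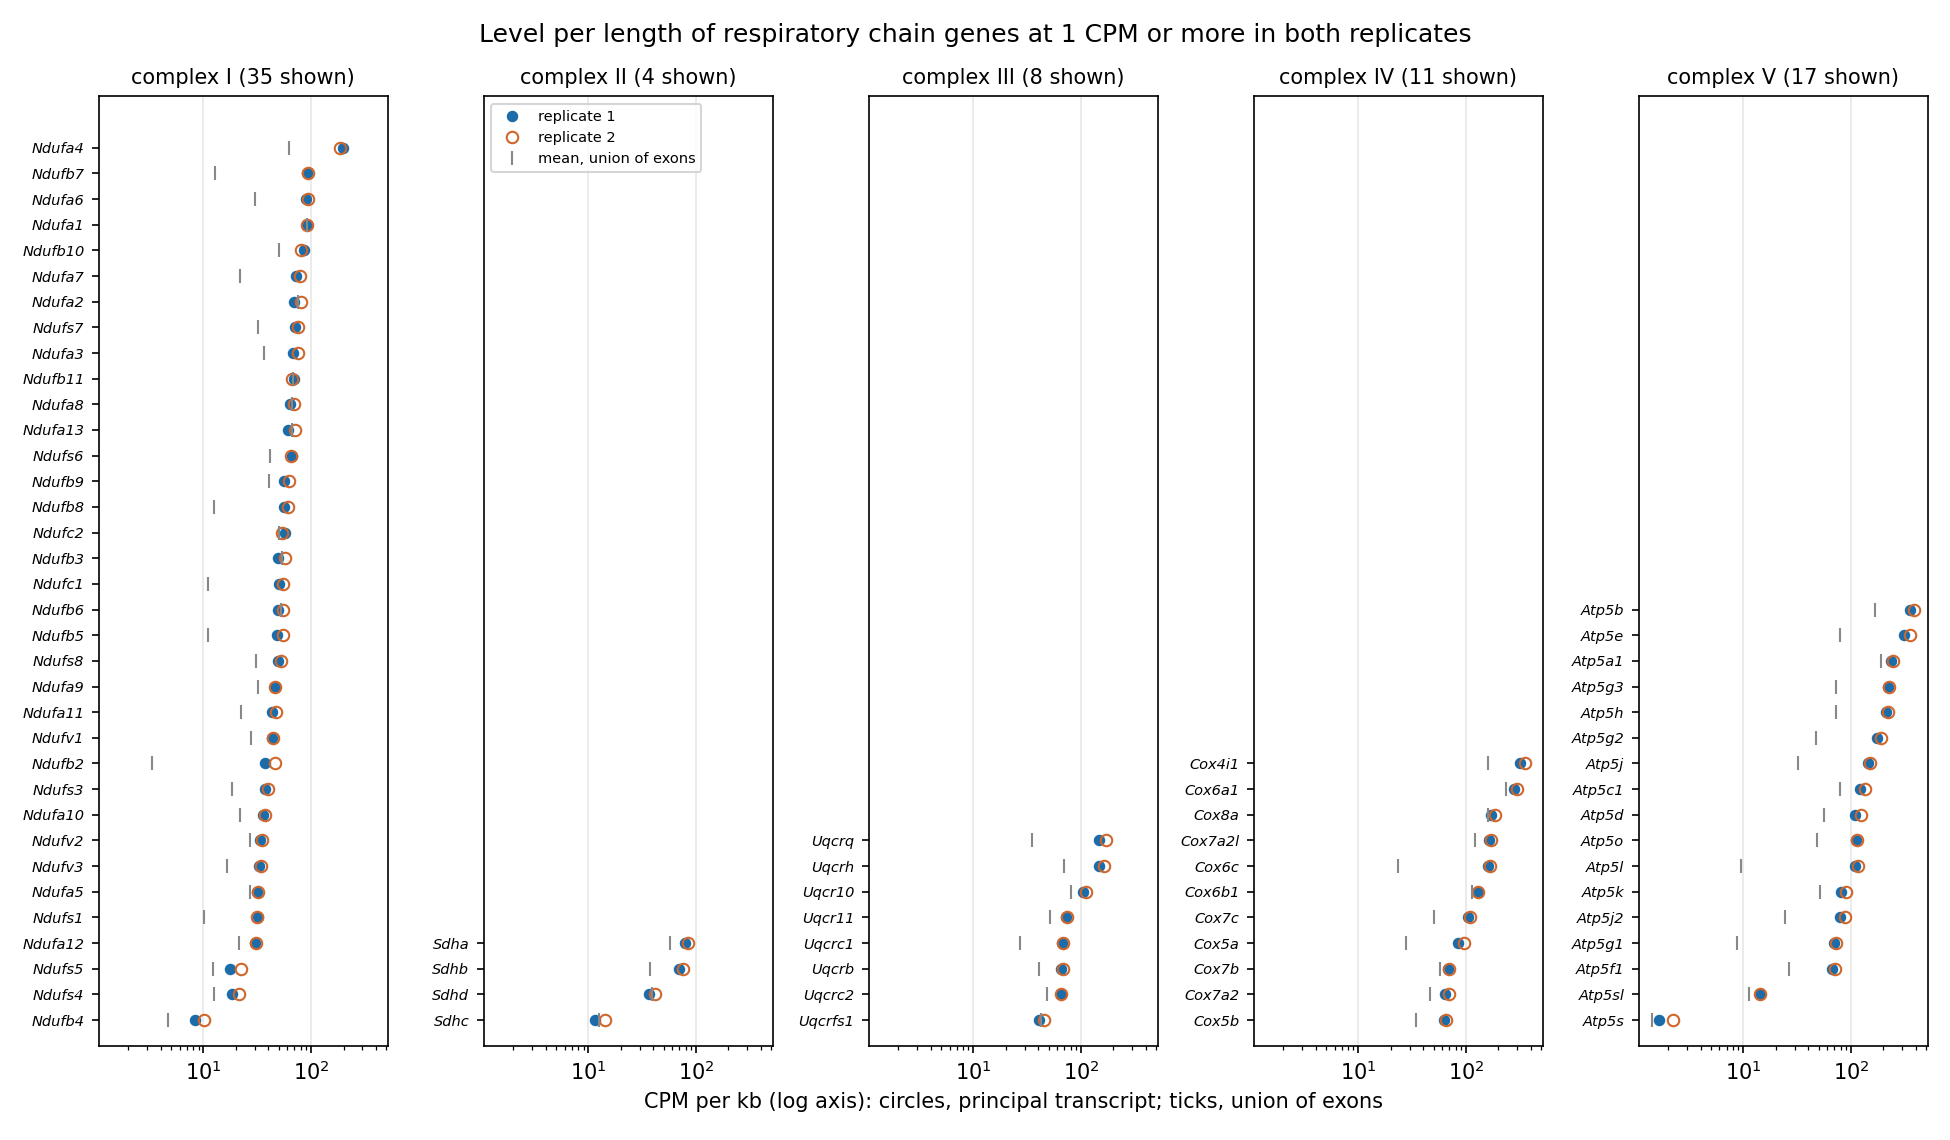
Level of 75 of the 76 genes at 1 CPM or more in both replicates, in CPM per kb on a log axis, by complex. Filled and open circles show replicates 1 and 2 per kb of principal transcript and grey ticks the mean per kb of exon union. The replicates lie close together for nearly every gene, Atp5b (371), Cox4i1 (335) and Atp5e are the furthest right, and Ndufb4, Sdhc, Atp5sl and Atp5s stand apart at the low end.

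Complex I, the NADH dehydrogenase, had its highest levels in Ndufa1, Ndufa2 and Ndufb11, all accessory subunits. Ndufa1 (X chromosome, 37187588 to 37191163) had 637 and 629 counts, or 90.9 and 92.4 CPM per kb of exon union. Ndufa2 had 69.8 and 79.7 CPM per kb and Ndufb11 68.6 and 67.0. Ndufa1 lay above the other two in both replicates, whereas Ndufb11 overlapped the next gene, Ndufa8, with 63.4 and 69.8. The lowest were the accessory subunits Ndufb4, with 4.27 and 5.08 CPM per kb, and Ndufb2, with 2.99 and 3.71. Ndufb2 depended on the length used, because its exon union is 5628 bases and its principal transcript 455 bases, which gave 37.0 and 45.9 CPM per kb. By the principal transcript the highest gene was Ndufa4, with 196 and 184 CPM per kb, followed by Ndufb7 with 92.2 and 94.0, and the lowest stayed Ndufb4, with 8.43 and 10.02.

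The 7 core genes of complex I encode the subunits that hold the flavin and the iron-sulfur clusters or line the quinone site. They had a median of 43.7 CPM per kb of principal transcript, with Ndufs1 the lowest at 31.7. The 29 accessory genes had a median of 55.2 and ranged from 9.22 to 190, where the upper end is Ndufa4. Without Ndufa4, which is known to sit in complex IV, the highest of the other 28 was Ndufb7 at 93.1 and the median 54.4. With the union of exons the medians were 27.5 and 30.1. Among neighbours in the order by exon union, 20 of 35 pairs of complex I overlapped between replicates, so much of the middle of that order is not resolved.

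Complex II, the succinate dehydrogenase, is encoded by nuclear genes alone. Sdha, the flavoprotein, had 3824 and 3965 counts, or 55.4 and 59.2 CPM per kb of exon union. Sdhb, the iron-sulfur subunit, had 35.7 and 38.5, and the membrane anchor Sdhd had 36.8 and 41.8, so these 2 overlapped by this length. By the principal transcript they did not, with 70.1 and 75.5 for Sdhb and 36.8 and 41.8 for Sdhd. Sdhc, the other anchor, had 11.2 and 14.0 CPM per kb, below the other three in both replicates. The ratio of the highest to the lowest mean was 4.55, and by the principal transcript it was 6.32, although the 4 subunits are present once each in the complex.

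Complex III, the cytochrome bc1 complex, showed the narrowest range, with a ratio of highest to lowest of 2.97 by the exon union and 3.69 by the principal transcript. The small subunit Uqcr10 had 77.5 and 82.1 CPM per kb of exon union, Uqcrh, the hinge protein, 65.6 and 72.0, and Uqcr11 50.6 and 51.9. At the low end stood Uqcrq with 32.3 and 37.5 and the core protein Uqcrc1 with 26.7 and 27.0. Uqcrq moved to the top with its principal transcript of 405 bases, at 146 and 170 CPM per kb, where it overlapped Uqcrh at 148 and 163. Uqcrfs1, the Rieske iron-sulfur protein, was then the lowest, with 40.6 and 44.9. Cyc1, the cytochrome c1 gene that the symbol rule leaves out, had 81.3 and 82.1 CPM.

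Complex IV, the cytochrome c oxidase, had the highest level per exon union of the whole set in Cox6a1, with 2688 and 2759 counts and 229 and 242 CPM per kb. Cox4i1 had 151 and 171 and Cox8a 152 and 165, and these 2 overlapped. The lowest expressed subunits were Cox5a, with 26.1 and 29.6, and Cox6c, with 22.7 and 23.8 CPM per kb. By the principal transcript Cox6c was at 161 and 169 and the lowest was Cox5b, at 62.0 and 64.7. Cox7a2l, not a fixed subunit, had 2961 and 2971 counts and 120 and 124 CPM per kb of exon union, which lay within the range of the subunits.

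Isoforms of complex IV differed by far more than the replicates. Cox4i1 had 3929 and 4302 counts and its lung isoform Cox4i2 had 0 and 0, which allows a share of up to 0.0764 and 0.0697% of the counts on the pair. Cox6a1 made up 99.8% ± 0.0507 (SD, n = 2) of its pair per kb of exon union, and the heart and muscle isoform Cox6a2 had 3 and 5 counts. Cox6b1 made up 99.8% ± 0.0992, with 6 and 3 counts on the testis isoform Cox6b2. Cox7b had 1141 and 1133 counts and Cox7b2, known from testis, had 0 and 0, a share of up to 0.263 and 0.265%. In the Cox8 family Cox8a had 1575 and 1661 counts, the muscle isoform Cox8b 1 in each library and the testis isoform Cox8c 0 in each. All of these minor isoforms were at or near the limit that 3 counts set, 0.179 CPM in replicate 1 and 0.185 CPM in replicate 2.

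Cox7a1, the heart and muscle partner of Cox7a2, had more than a few counts. There were 16 and 13, or 0.956 and 0.800 CPM, against 706 and 746 counts of Cox7a2. Cox7a2 thus made up 96.6% ± 0.609 of the pair per kb. The exact 95% interval for the share of Cox7a1 in the counts of the pair was 1.27 to 3.57% in replicate 1 and 0.915 to 2.91% in replicate 2. The 4 muscle markers Acta1, Ckm, Myh6 and Myh7 were each under 1 CPM, with a summed level of 0.598 and 0 CPM, and their part in the Cox7a1 counts was not tested. Ndufa4, counted here by its symbol with complex I although it is known to sit in complex IV, had 1485 and 1352 counts, and Ndufa4l2 had 2 and 4.

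**Figure D2:**
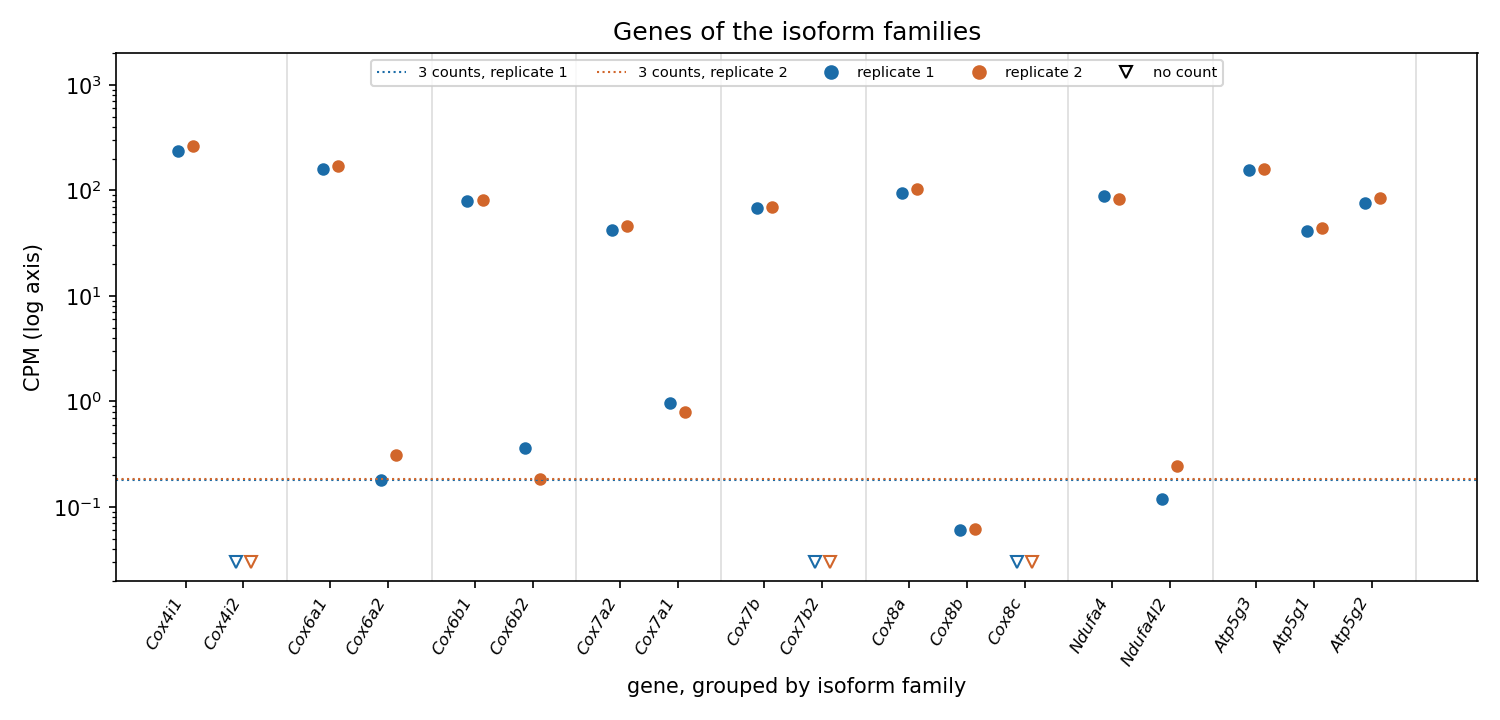
CPM on a log axis of each gene of the 8 isoform families, with 1 point per replicate, dotted lines at 3 counts (0.179 and 0.185 CPM), and open triangles, placed at an arbitrary height, for genes with no count. Of the minor isoforms of complex IV, Cox7a1 lies furthest above the lines, at 0.956 and 0.800 CPM, while all 3 Atp5g genes lie between 41.2 and 161 CPM.

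The 100 bases before the start are shown for 4 pairs with a large gap in level, the widespread isoform first, with CG in capitals. In 3 of these pairs the widespread isoform had more CG pairs in the stretch, with 9 in Cox6b1 against 4 in Cox6b2, 9 in Cox7a2 against 2 in Cox7a1 and 9 in Cox8a against 0 in Cox8b. Cox7b and Cox7b2 went the other way, with 3 and 7. The 4 genes under 1 CPM with a promoter entry held 2 to 10 CG pairs in 300 bases, and the 62 expressed genes 5 to 43.
Cox6b1, chr7:30626115-30626214, minus strand: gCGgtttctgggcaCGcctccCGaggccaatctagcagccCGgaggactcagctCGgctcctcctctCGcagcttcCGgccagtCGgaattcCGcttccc
Cox6b2, chr7:4753095-4753194, minus strand: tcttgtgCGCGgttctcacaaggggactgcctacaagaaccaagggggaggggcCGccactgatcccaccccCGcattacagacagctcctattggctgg
Cox7a2, chr9:79759854-79759953, minus strand: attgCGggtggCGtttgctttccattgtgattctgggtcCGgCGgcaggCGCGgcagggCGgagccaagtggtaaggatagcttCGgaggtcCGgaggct
Cox7a1, chr7:30184071-30184170, plus strand: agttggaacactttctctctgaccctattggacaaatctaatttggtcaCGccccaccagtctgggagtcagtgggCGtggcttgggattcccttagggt
Cox8a, chr19:7217617-7217716, minus strand: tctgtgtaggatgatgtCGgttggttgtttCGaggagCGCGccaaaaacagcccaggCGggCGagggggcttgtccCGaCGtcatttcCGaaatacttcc
Cox8b, chr7:140900447-140900546, minus strand: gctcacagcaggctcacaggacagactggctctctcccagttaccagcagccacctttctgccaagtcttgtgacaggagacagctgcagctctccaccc
Cox7b, chrX:106015600-106015699, plus strand: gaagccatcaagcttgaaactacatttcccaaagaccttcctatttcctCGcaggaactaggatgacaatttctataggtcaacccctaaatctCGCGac
Cox7b2, chr5:71548206-71548305, minus strand: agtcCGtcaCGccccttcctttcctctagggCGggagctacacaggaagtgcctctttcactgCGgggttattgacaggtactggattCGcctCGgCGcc

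By exon union and by principal transcript, complex V had its highest levels in the F1 part. Atp5b, the beta subunit (chromosome 10, 128083273 to 128090391), had 11327 and 12071 counts, or 677 and 743 CPM, and was the most counted gene of the set. Atp5a1, the alpha subunit, had 9684 and 9871 counts. Per kb of exon union Atp5a1 stood at 185 and 194, Atp5b at 160 and 175 and Atp5e, the epsilon subunit, at 73.8 and 85.4. By the principal transcript Atp5b, at 353 and 388, overlapped Atp5e, at 308 and 356, and both lay above Atp5a1, at 234 and 246. The 5 F1 genes had a median of 240 CPM per kb of principal transcript, from Atp5d at 116 to Atp5b at 371. The 10 genes of Fo and the peripheral stalk had a median of 112, from 68.5 to 222. With the union of exons the medians were 79.6 and 39.8. Neither length allows for sequence shared with other genes, which is taken up below. Of the 50-base windows of the principal transcript, 84.8% were shared in Atp5l and 66.6% in Atp5h of Fo and the stalk. Per 1000 windows that are not shared these 2 had 814 and 721 CPM, above Atp5b with 384 and Atp5e with 376. The other Fo and stalk genes with such a value lay below Atp5e, and Atp5g2 had no such window. In the assembled enzyme the alpha and beta subunits are present in several copies and gamma, delta and epsilon in a single one.

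The ring of subunit c in Fo is encoded by 3 genes, Atp5g1, Atp5g2 and Atp5g3, whose mature proteins are the same and whose import sequences differ. Unlike the isoforms of complex IV, all 3 were expressed. Atp5g3 had 2621 and 2608 counts, Atp5g2 1276 and 1362 and Atp5g1 690 and 709. Atp5g3 made up 57.1 and 55.5% of the family per kb of exon union, Atp5g2 36.2 and 37.8% and Atp5g1 6.68 and 6.70%. By the principal transcript the shares were 47.5 and 46.1%, 37.5 and 38.9%, and 15.0 and 15.0%. The order was the same by both lengths, and the distances were not. Sequence shared with other genes was not allowed for in these shares. Per 1000 windows that are not shared, Atp5g1 had 228 CPM and Atp5g3 238 CPM, and Atp5g2 had no such window. The order of the 3 genes is therefore not settled. The lowest genes of complex V by exon union were Atp5s, with 41 and 54 counts (1.20 and 1.63 CPM per kb), and Atp5g1, with 8.40 and 8.88 CPM per kb. By principal transcript Atp5sl, with 575 and 550 counts and 14.4 and 14.2 CPM per kb, took the place of Atp5g1.

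The replicates were compared gene by gene to see which members moved beyond counting error, with a two-sided exact binomial test on 15949 genes with at least 10 counts. This compares 2 libraries and not conditions. Of the 84 genes 77 could be tested, and 0 reached a 2-fold difference at an adjusted p under 0.05, where 1.52% of all tested genes did. Without the minimum fold 16 passed, or 20.8%, against 16.3% of all tested genes, and at an unadjusted p under 0.05 there were 27, or 35.1%, against 27.7%. These shares compare genes of unlike depth, since 75 of the 77 members had at least 200 counts, as had 9743 of all 15949 tested. All 27 were higher in replicate 2, but with edgeR's TMM library sizes there were 11 at an unadjusted p under 0.05, 7 of them higher in replicate 2 and 4 higher in replicate 1. The 16 without a minimum fold became 5, of which 4 were higher in replicate 2 and 1, Ndufa4, in replicate 1. For edgeR's exact test a biological coefficient of variation of 0.1 was assumed. With it 0 met the same call rule and 0 had an unadjusted p under 0.05. At that value the test has little power for differences as small as those seen here. The 0 therefore does not show that the members are alike. Shares over all tested genes are not given for this test or for TMM library sizes.

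With totals on genes the 16 differences were small and lay mostly in genes with many counts. Atp5b was higher in replicate 2 by 0.13 on the log2 scale (677 and 743 CPM), with an adjusted p = 6.85e-11 in the exact binomial test. Cox4i1 differed by 0.17 (235 and 265 CPM, adjusted p = 1.69e-06, exact binomial test) and Atp5e by 0.21 (130 and 150 CPM, adjusted p = 1.76e-05, exact binomial test). Sdhc had 609 and 737 counts, a log2 difference of 0.32 with an adjusted p = 0.000938 in the same exact test. The largest difference in size was that of Atp5s, 0.44 with 41 and 54 counts, which did not pass (adjusted p = 0.371, exact binomial test). Across the 75 genes with at least 200 counts in all, the log2 differences ran from -0.10 to 0.33.

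Most members were higher in replicate 2, and how many depended on the library size used. With totals on genes it was 67 of 77, with a median log2 difference of 0.09, where 65.5% of all tested genes were higher with a median of 0.08. With edgeR's TMM library sizes it was 44 of 77, with a median of 0.02 against 0.00 for all. With totals that left out mitochondrial and ribosomal RNA genes, which held 15.2 and 12.2% of the counts, it was 56 of 77, with a median of 0.04 against 0.03. For TMM library sizes and for these totals the share of all tested genes that were higher is not given. The median size of the difference, whatever its sign, was 0.09 on the log2 scale for the 75 genes with at least 200 counts, and 0.11 for all 9743 tested genes with as many.

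**Figure D3:**
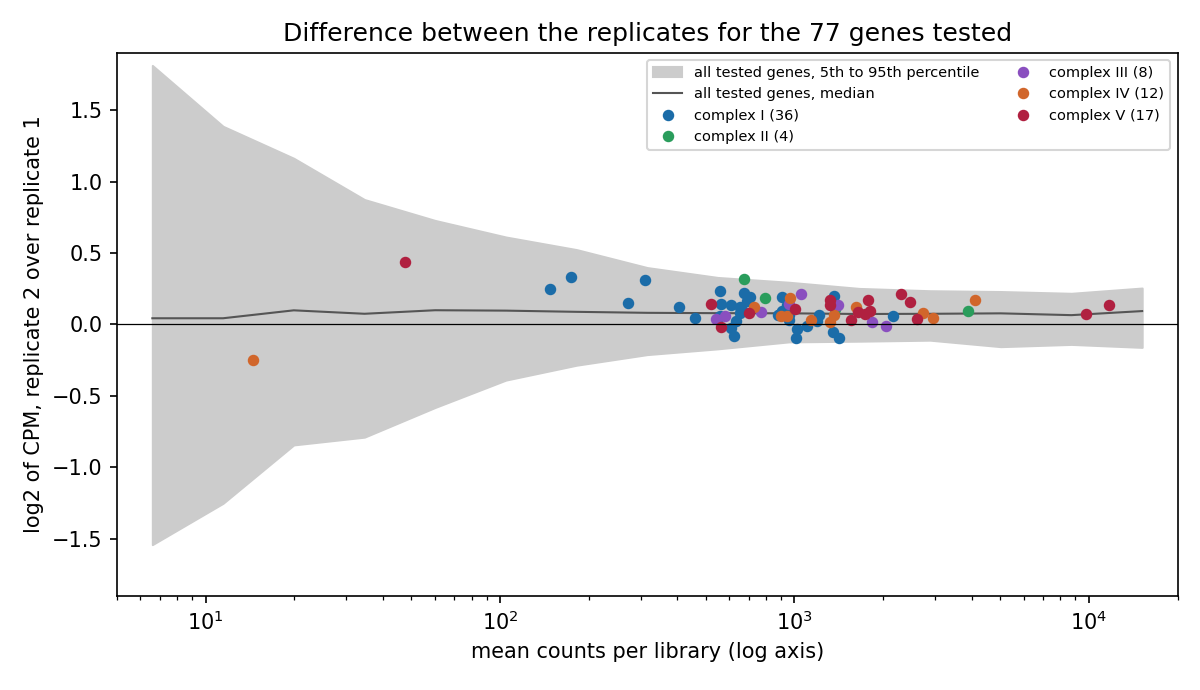
Log2 of CPM in replicate 2 over replicate 1 against the mean count per library on a log axis, for the 77 tested genes, coloured by complex. The grey band spans the 5th to 95th percentile of all tested genes in 15 count ranges and the line is their median. The 2 members with the fewest counts are Cox7a1 (-0.25) and Atp5s (0.44), the latter the furthest from 0, and the 75 others lie between -0.10 and 0.33.

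The 3 members on the X chromosome, Ndufa1, Ndufb11 and Cox7b, differed by 0.02, -0.03 and 0.03 on the log2 scale between the library with 34 Xist counts and the library with 25266, and with TMM library sizes all 3 turned lower in replicate 2, by -0.05, -0.11 and -0.04. Ndufb11 had 62.3 and 60.9 CPM, Cox7b 68.2 and 69.7 CPM and Ndufa1 38.1 and 38.7 CPM. None of the 3 passed the test (adjusted p 0.816, 0.812 and 0.919, exact binomial test). The median of the 3 was 0.02 and that of the autosomal members 0.10 with totals on genes. The part of sex in these values was not tested, since each library stands alone in this respect.

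Many of these genes have processed copies in the genome, and reads that align to several places were not counted. Windows of 50 bases, the read length, were therefore looked up in the transcripts of other genes. In the principal transcripts the median share of windows found elsewhere was 1.05%, and 38 of the 84 genes had none. Over 20% was shared by 20 genes, all of them expressed. The highest was Atp5g2, with 100% of its windows in the pseudogenes Gm10231 and Gm10175, followed by Atp5l with 84.8%, Atp5h with 66.6%, Atp5g1 with 66.0% and Cox7c with 53.0%. Over all its transcripts Atp5g2 shared 38.3% of windows, and it still had 1276 and 1362 counts. None of the principal windows of Atp5g3 was shared, so the shares within the Atp5g family are uncertain. How many reads each gene lost was not tested.

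The 20 genes above 20% had a median of 66.0 CPM per kb of principal transcript and the 56 others 72.7. Per 1000 windows that are not shared, the medians were 96.0 CPM over 19 of the 20, since Atp5g2 has no such window, and 83.2 CPM over the 56. Ndufb4, with 37.0% of its principal windows shared, was the lowest per kb of principal transcript among the subunits at 1 CPM or more in both replicates. Per 1000 windows that are not shared, Ndufb4 had 15.4 CPM, above Sdhc with 13.1 CPM. The pseudogenes themselves held few counts, since 50 partners were listed and had 273 and 314 counts in all, and 5 of them had at least 10. Gm6969, a copy of Cox7a2l, held 200 and 225 of these. BC002163, a copy of Ndufs5, had 44 and 50 counts, or 28.2 and 26.2% of the 156 and 191 counts of Ndufs5, whose principal windows were 41.2% shared. Exons of 29 members overlapped another gene, in 26 cases on the opposite strand, and with a kit that does not mark strand reads from both cannot be told apart.

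**Figure D4:**
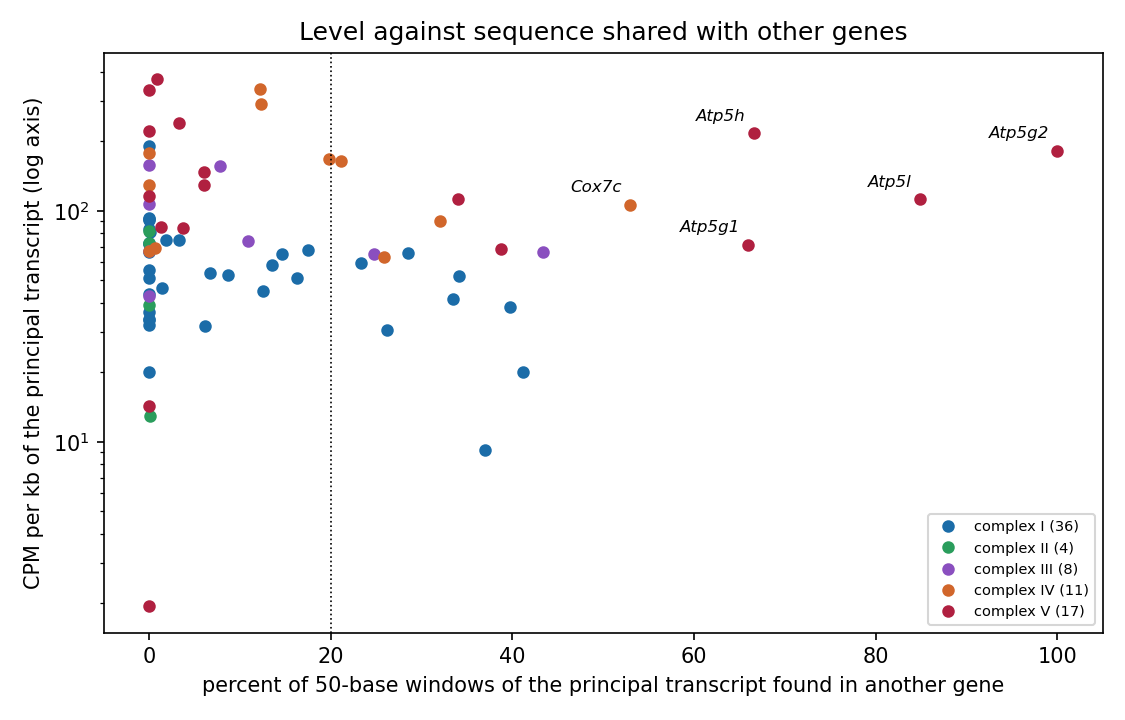
Mean CPM per kb of principal transcript, on a log axis, against the percent of 50-base windows found in another gene, for the 76 genes at 1 CPM or more in both replicates, coloured by complex, with a dotted line at 20%. The 5 genes with the largest share are named, and they lie between 71.2 (Atp5g1) and 217 CPM per kb (Atp5h).

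Genes that serve the chain without being members were mostly expressed as well. Of 45 assembly factors listed, 44 were at 1 CPM or more in both libraries, with 0 called different, where 1.52% of all tested genes were. Of the 44, 29 were higher in replicate 2 (65.9%, against 65.5% of all tested genes), with a median log2 difference of 0.06 against 0.08. Cox20 and Cox14, which help to build complex IV, were the highest of them per kb of exon union, with 48.9 and 43.6 and with 46.1 and 53.6 CPM per kb. The lowest with counts were Sdhaf3, at 0.610 and 0.725 CPM per kb, and the complex I factor Nubpl, at 0.555 and 0.696, and Pet117 had no count. All 13 genes of the citric acid cycle were expressed, and 6 of the 13 (46.2%) were higher in replicate 2. Malate dehydrogenase Mdh2, at 42.8 and 43.7 CPM per kb of exon union, and Ogdh, at 38.4 and 34.4, were the highest of them. Cytochrome c came from the somatic gene Cycs, with 37.9 and 40.6 CPM, while the testis gene Cyct had 2 counts and 0.

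The 13 subunits encoded in mitochondrial DNA summed to 13344 and 11469 CPM, against 6252 and 6672 CPM for the 84 nuclear genes. In the 9 that could be tested, 8 were lower in replicate 2, with a median log2 difference of -0.20, and 5 of the 13 had at most 5 counts in each library. Among these 5, mt-Co2 had 1 and 2 counts, beside 71408 and 60442 for mt-Co1. The sum may therefore not hold the full level of the 13, and why these 5 were low was not tested.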

How the data were processed

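RNA of sorted CD4- mature thymocytes was sequenced in 2 replicates after poly(A) selection. According to the methods and the submitters' processing notes, single-end 50-base reads were mapped with TopHat 2.1.1 onto mm10 and counted per gene with HTSeq 0.6.1. The annotation used for counting and the strand setting were not given in the sources used here. The authors deposited raw read counts per gene, without normalization, and lines for reads not assigned to a gene were left out of totals. Between 40.6 and 41.2% of uniquely aligned reads were counted on genes and 55.9% were assigned to no gene. Reads assigned to no gene need not lie outside genes, since the annotation and strand setting were not given.

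From these counts CPM, shares, SD over the 2 replicates and 95% Wilson or exact intervals were computed, with 3 counts as the floor. No molecular identifiers were used, so reads are not independent molecules and intervals cover counting error only. Lengths, positions and transcript sequences came from GENCODE M21 (GRCm38), in which all 84 members were located, 1 of them through a RefSeq synonym. The principal transcript was the shortest one marked as principal in APPRIS. The replicates were compared by an exact binomial test with Benjamini-Hochberg adjustment over all genes with at least 10 counts (scipy 1.17.1, statsmodels 0.14.6), and by edgeR 4.0.16. As alternatives, TMM normalization factors (0.974 and 1.03) and DESeq2 1.42.0 size factors (0.989 and 1.01) set the library sizes, minimum counts and lengths were changed, and each replicate was left out. The binomial test was tested on simulated data. Promoters were RefSeq sequences.

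Named with values are, per complex, the 3 highest and 2 lowest expressed genes per kb of exon union, genes under 1 CPM, the isoform families, X-linked genes, matches that are not subunits and the 5 with most shared windows. Other genes named were chosen after their values were seen. The members and lists were chosen with earlier results of these data known. The wild-type libraries of another series were not analysed here. The values of 1 member of complex I are not reported here on their own.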

Additional observations from a re-analysis of the deposited data

How the results depend on the processing

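Dividing by totals without 392 mitochondrial and ribosomal RNA genes raised the summed level to 7487 CPM over all members, and to 2032, 473, 645, 1322 and 3014 CPM for complexes I to V, since the divisor is smaller. TMM and DESeq2 library sizes moved each sum by less than the replicate SD. Counting Ndufa4 with complex IV, an alternative added after seeing the data, gave 1668 CPM for complex I and 1227 CPM for complex IV, and leaving out genes that are not subunits gave 961 CPM for complex IV. Without 1 replicate the sums ranged from 6252 to 6672 CPM for all members, from 1712 to 1796, 390 to 427, 543 to 571, 1104 to 1179 and 2504 to 2700 CPM for complexes I to V. With no minimum fold 16 members differed between the replicates, and with the minimum fold 0 under each library size, minimum count and the edgeR exact test. Without the fold, TMM and DESeq2 library sizes left 5, and leaving those 392 genes out of the totals left 4. The shares over all tested genes are not given for these library sizes. At 0.5 and 5 CPM, 77 and 75 members were expressed. The share of Cox6b1 was 99.6618% by counts, 99.6428% by longest and 99.5511% by principal transcript. Cox7a2 was at 98.0 and 97.3% by counts and longest transcript, Cox8a at 99.9382, 99.9056 and 99.9056%, and Ndufa4 at 99.8959% by principal transcript. Atp5g3 was at 61.5% by longest and 46.8% by principal transcript. Without 1 replicate these shares ranged from 99.7134 to 99.8538% for Cox6b1, 96.2 to 97.0% for Cox7a2 and 55.5 to 57.1% for Atp5g3. The highest level per kb, by longest and then principal transcript, was 81.5 and 81.5 for Sdha, 106 for Uqcrh and 158 for Uqcrq, 327 and 335 for Cox4i1 and 371 and 371 for Atp5b, while in complex I it was 190 for Ndufa4 by principal transcript. The principal transcript was added after seeing the data. Over all transcripts the median share of windows found elsewhere was 1.13% with 50 bases and 3.01% with 40 bases. No paired analysis was possible because both libraries belong to 1 group. The design has 2 libraries, so it limits the spread that can be measured, and no difference between conditions can be shown.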
